A study of Mus musculus with 289 samples.

Results

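The genes described here are 10 components of the epidermal desmosome, namely Dsp, Jup, Pkp1, Pkp3, Dsg1a, Dsg2, Dsg3, Dsc2, Dsc3 and Perp. They were chosen by symbol, and all 10 were found among the 15019 genes of the count table. The comparisons asked how their RNA differed between cells with basal and cells with suprabasal keratins, and between skin treated with PRT4165 and skin treated with vehicle.

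Desmosomes are cell junctions that tie the keratin filaments of neighbouring keratinocytes together. Their adhesive part is made of the desmosomal cadherins, the desmogleins (Dsg) and desmocollins (Dsc), whose tails bind the armadillo proteins plakoglobin (Jup) and plakophilins (Pkp). These in turn bind desmoplakin (Dsp), which holds the keratin filaments. In stratified epidermis the cadherins are known to be exchanged as a cell leaves the basal layer, with desmoglein 3 and desmocollin 3 typical of the lower layers and desmoglein 1 and desmocollin 1 of the upper ones. Perp is a tetraspan membrane protein of the junction and a target of p63, the transcription factor of stratified epithelia.

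The cells came from the tail epidermis of mice carrying the Lrig1-EGFP-ires-CreERT2 and Rosa26-fl/STOP/fl-tdTomato alleles (strain CBA C57BL/6 mixed, females per the study's methods). In all of them a single topical dose of hydroxytamoxifen had switched on the tomato reporter in cells with an active Lrig1 promoter, so the sorted cells are descendants of Lrig1-positive follicle cells and not the whole epidermis. The unwounded skin then received PRT4165, which blocks the H2A ubiquitin ligases Ring1A and Ring1B in Polycomb repressive complex 1, or vehicle, which the methods give as acetone. Age is not given in the labels. Tomato-positive cells were sorted singly into 96-well plates, 2 plates per treatment, and sequenced by a modified Smart-seq2 protocol. The plate is the replicate throughout. A plate carried only cells of 1 treatment, and the labels do not tie its cells to mice (the study describes independent experiments, each with several biological replicates). P-values between treatments therefore measure the spread between plates, which may be partly technical, and effects of a plate are not separable from those of its treatment. P-values between cells with basal and with suprabasal keratins measure how the difference within a plate varies over plates, which may also be partly technical.

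Of 289 cells, 274 passed the filter of the study, namely 70 and 55 cells treated with vehicle and 72 and 77 treated with PRT4165. Estimated counts summed to between 25761800 and 41592700 per plate. The median cell of vehicle replicate 1 held 141985 counts, against 429383 to 538754 on the other plates. Cells were split by the share of Krt1 and Krt10 (keratins of suprabasal cells) in the counts of these plus Krt5 and Krt14 (keratins of basal cells). A share below 10% was called basal-like (35 and 34 vehicle cells, 37 and 32 PRT4165 cells), a share of 50% or more suprabasal-like (89 cells), and 31 cells lay between. A further 16 cells with under 50 keratin counts were left unclassed. The shares sat mostly at the ends, with 98 cells below 1% and 54 above 90%, while 21 cells lay within 5 percentage points of the lower limit and 7 of the upper. Markers not used for the split moved with it on every plate. The summed level of Itga6, Itgb4, Itgb1, Col17a1 and Lamb3 was 421 to 774 CPM (counts scaled to a plate total of 1e6) in basal-like and 35.6 to 192.4 in suprabasal-like cells. Krtdap, Sbsn, Calml3, Dmkn and Lypd3 summed to 1625 to 3682 and 9035 to 16182 CPM. The classes are ranges of a keratin share and not anatomical layers, and markers of follicle and gland cells were also present.

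Per kb of transcript, Perp and Dsp were the highest of the 10 genes. Over all cells of a plate, the Perp level was 2010 ± 1005 CPM per kb (SD, n = 4 plates) and the Dsp level 538 ± 130.8. Dsc3 followed at 137.6 ± 14.4 and Dsg1a at 106 ± 54.2 CPM per kb. Dsg3 (29.2 ± 15.8), Pkp1 (25.7 ± 7.38), Jup (15.7 ± 6.45), Pkp3 (9.02 ± 3.60), Dsg2 (7.27 ± 6.74) and Dsc2 (4.99 ± 3.66 CPM per kb) were lower. The plate range of Perp (1250 to 3376) did not overlap that of Dsp (347 to 627), nor Dsp that of Dsc3 (117 to 151.1), nor Dsg1a (62.8 to 184.7) that of Dsg3 (13.01 to 49.2). Dsc3 and Dsg1a, and all neighbours from Dsg3 down, had overlapping ranges. Dsc3 had the narrowest spread between plates relative to its level, and Dsc2 ran from 0.153 to 8.90 CPM per kb. A single cell held 64.3% to 90.8% of a plate's Dsc2 counts and 23.4% to 66.5% of its Dsg2 counts, so plate sums of these genes rest on few cells.

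**Figure D1:**
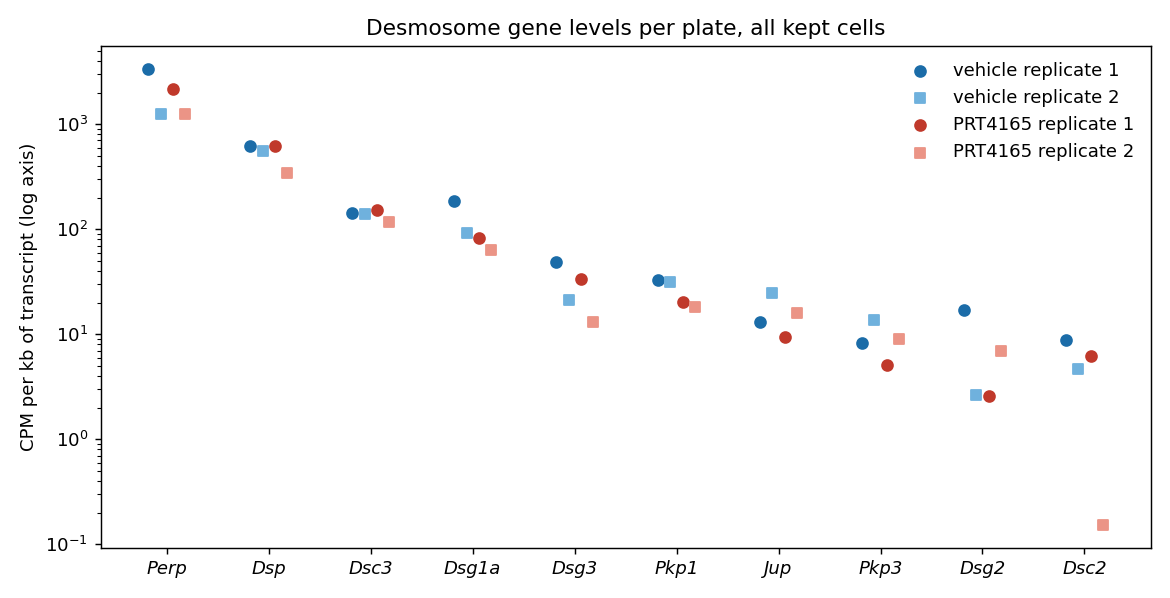
CPM per kb of the longest protein-coding transcript for each desmosome gene (log axis), 1 point per plate over all kept cells, with circles for replicate 1 and squares for replicate 2. Perp and Dsp lie above the other genes on every plate, and Dsc2 spans the widest range on the log axis, from 0.153 to 8.90.

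By the mouse annotation (GRCm38, GENCODE M21), Dsp lies at chr13:38151294-38198577 on the plus strand, Jup at chr11:100368958-100397763 on the minus strand and Pkp1 at chr1:135871395-135919207 on the minus strand. Pkp3 lies at chr7:141078218-141090510 and Perp at chr10:18845020-18857073, both on the plus strand. The 5 cadherin genes lie on chromosome 18. All are protein-coding, and reads were counted over transcripts. Of the 75-base windows of the Dsg1a transcript, 29.2% also occur in other genes, 26.0% in Dsg1b. Counts of Dsg1a and its copies Dsg1b and Dsg1c are therefore uncertain one by one, and below they are also summed as Dsg1. No window of the other 9 genes is shared.

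The plaque gene Dsp and the membrane genes Perp and Dsg1a rose from basal-like to suprabasal-like cells, while Dsc3, Pkp1 and Jup were higher on every plate without passing the test (Jup and Pkp1 on 3 plates without TMM scaling). Levels below are CPM after TMM scaling, in the order vehicle replicates 1 and 2, PRT4165 replicates 1 and 2. Dsp, the keratin-binding plaque protein, stood at 2538, 3374, 2271 and 1443 in basal-like cells and at 8917, 11422, 12958 and 6159 in suprabasal-like cells. The lowest suprabasal-like plate was above the highest basal-like plate. The log2 fold change was 2.04 (SE 0.20, edgeR adjusted p = 0.0102).

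Jup, whose product plakoglobin links cadherin tails to desmoplakin, measured 35.8, 58.5, 12.5 and 34.1 CPM in basal-like cells and 42.5, 107.6, 50.8 and 78.1 in suprabasal-like cells. Each plate was higher in its suprabasal-like cells, but the classes overlapped, and the log2 fold change of 1.08 (SE 0.58) had an edgeR adjusted p of 0.462. Pkp1, the plakophilin known to strengthen suprabasal desmosomes, was at 119, 125, 55.9 and 44.3 CPM in basal-like and at 183.1, 192.4, 170.97 and 149.6 in suprabasal-like cells. Its classes did not overlap, yet the log2 fold change of 1.15 (SE 0.45) did not pass (edgeR adjusted p = 0.322). Pkp3, a plakophilin found through all layers, was at 37.1, 40.1, 14.4 and 28.5 and at 13.2, 34.8, 17.3 and 31.5 CPM. It was lower in suprabasal-like cells on both vehicle plates and higher on both PRT4165 plates, with a log2 fold change of -0.31 (SE 0.69, edgeR adjusted p = 0.905). On PRT4165 replicate 2 a single cell held 66.9% of the suprabasal-like Pkp3 counts.

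**Figure D2:**
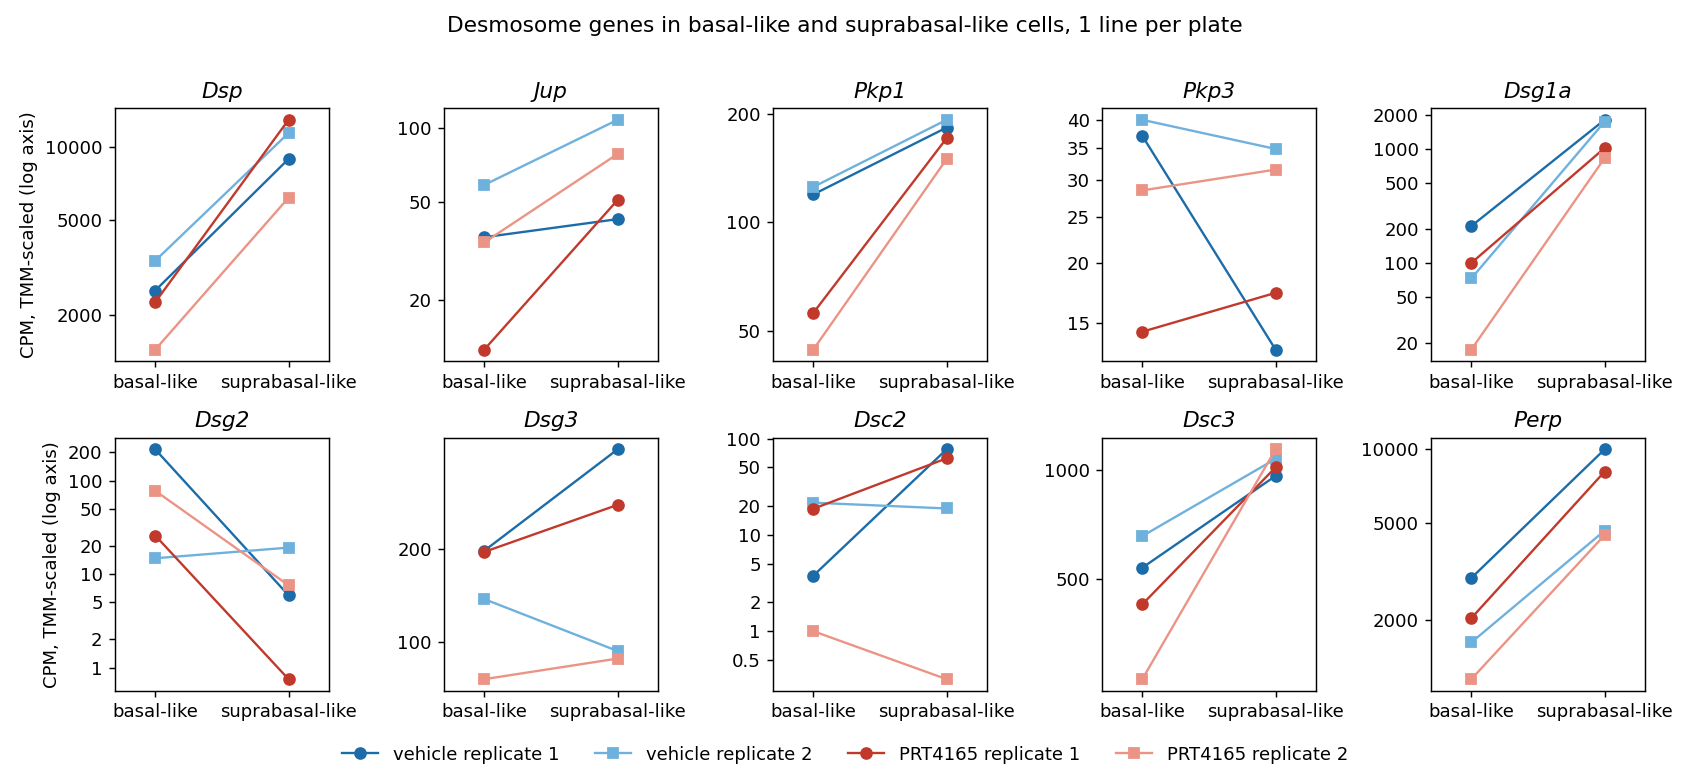
Levels of the 10 desmosome genes in CPM after TMM scaling (log axis, own range per panel), basal-like against suprabasal-like cells, with 1 line per plate. The lines of Dsp, Jup, Pkp1, Dsg1a, Dsc3 and Perp slope up on all 4 plates (those of Jup and Pkp1 on 3 without TMM scaling), whereas those of Pkp3, Dsg2, Dsg3 and Dsc2 cross or differ in direction.

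Of the 5 cadherins among the 10 genes, Dsg1a, a copy of desmoglein 1, had the largest fold change. It was at 210, 73.03, 99.9 and 17.4 CPM in basal-like and at 1798, 1732, 1017 and 830 CPM in suprabasal-like cells, with no overlap. The log2 fold change was 4.13 (SE 0.51, edgeR adjusted p = 0.0224). The ratio of the classes ran from 8.55 to 47.8 over the plates. On vehicle replicate 2, where it was 23.7, a single cell held 48.2% of the suprabasal-like Dsg1a counts, against 11.8% to 25.5% on the other plates.

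Dsg3, the desmoglein of the lower layers, was at 197, 137.5, 195.3 and 75.8 CPM in basal-like and 419, 93.5, 277 and 88.4 CPM in suprabasal-like cells, a log2 fold change of 0.32 (SE 0.43, edgeR adjusted p = 0.819) whose sign turned with library totals (-0.24) and with mean log2 values of cells (-1.01). It was lower in suprabasal-like cells only on vehicle replicate 2. Dsg2, a desmoglein of simple epithelia and of the lower follicle, was at 216, 14.8, 25.8 and 77.9 CPM in basal-like and at 5.92, 19.2, 0.750 and 7.58 in suprabasal-like cells. It was lower on 3 of 4 plates, with a log2 fold change of -3.58 (SE 1.18, edgeR adjusted p = 0.246). Without TMM scaling Dsg2 was lower on all 4 plates, and its classes did not overlap.

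The desmocollin Dsc3 was at 537, 657, 426 and 264 CPM in basal-like cells and at 964, 1074, 1018 and 1141 CPM in suprabasal-like cells. These did not overlap, and the suprabasal-like plates were close to each other. Without TMM scaling the classes overlapped (basal-like up to 849.7 CPM, suprabasal-like from 728.0). The log2 fold change of 1.22 (SE 0.33) had an edgeR adjusted p of 0.172. Dsc2, the widely expressed desmocollin, ran from 0.996 to 21.5 CPM in basal-like and from 0.316 to 77.1 CPM in suprabasal-like cells, so its log2 fold change of 1.01 (SE 1.19, edgeR adjusted p = 0.786) carries little information. Perp was at 2969, 1618, 2034 and 1145 CPM in basal-like cells and at 9974, 4639, 8092 and 4449 CPM in suprabasal-like cells. The replicate 1 plates were the higher ones in both classes. The classes did not overlap after TMM scaling, but without it they did (basal-like up to 3667 CPM, suprabasal-like from 3598). The log2 fold change was 1.80 (SE 0.20, edgeR adjusted p = 0.0127).

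In all, 3 of the 10 desmosome genes passed the test, each higher in suprabasal-like cells, against 0.37% of the 12434 genes tested in either direction (0.338% higher, 0.0322% lower). The median log2 fold change was 1.12 over the 10 genes and -0.33 over all genes, and 8 of the 10 were positive against 40.3% of all genes. With TMM scaling 6 of the 10 were higher on all 4 plates, as were 9.85% of all genes, and 0 of the 10 were lower on all 4, as were 14.5%. Scaling by library totals alone moved the median of all genes to -0.88. With those totals Dsp was at a log2 fold change of 1.48 and Dsg1a at 3.58 (edgeR adjusted p = 0.0514 for both), Perp was at 1.24 (0.0635), no desmosome gene passed, and Dsg3 changed sign to -0.24. Without TMM scaling, Dsp, Dsg1a, Dsc3 and Perp were higher on all 4 plates, Jup and Pkp1 on 3, Dsg3 and Dsc2 on 2, and Pkp3 and Dsg2 on 0. The share of all genes with such plate orders was counted only with TMM scaling. With library totals 26.0% of all genes had a positive log2 fold change, as did 7 of the 10. Without that scaling Dsp and Dsg1a kept classes without overlap, and Dsg2 gained this in the opposite direction. Dsg2 was at 19.1 CPM or more in basal-like and at 17.2 or less in suprabasal-like cells. How many of all genes had classes without overlap was not counted, so separation of the classes only describes each gene. The calls also rest on single plates. Without vehicle replicate 2 the edgeR adjusted p was 0.0655 for Dsp, 0.0733 for Perp and 0.122 for Dsg1a, and without PRT4165 replicate 1 it was 0.0845, 0.0986 and 0.0845.

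**Figure D3:**
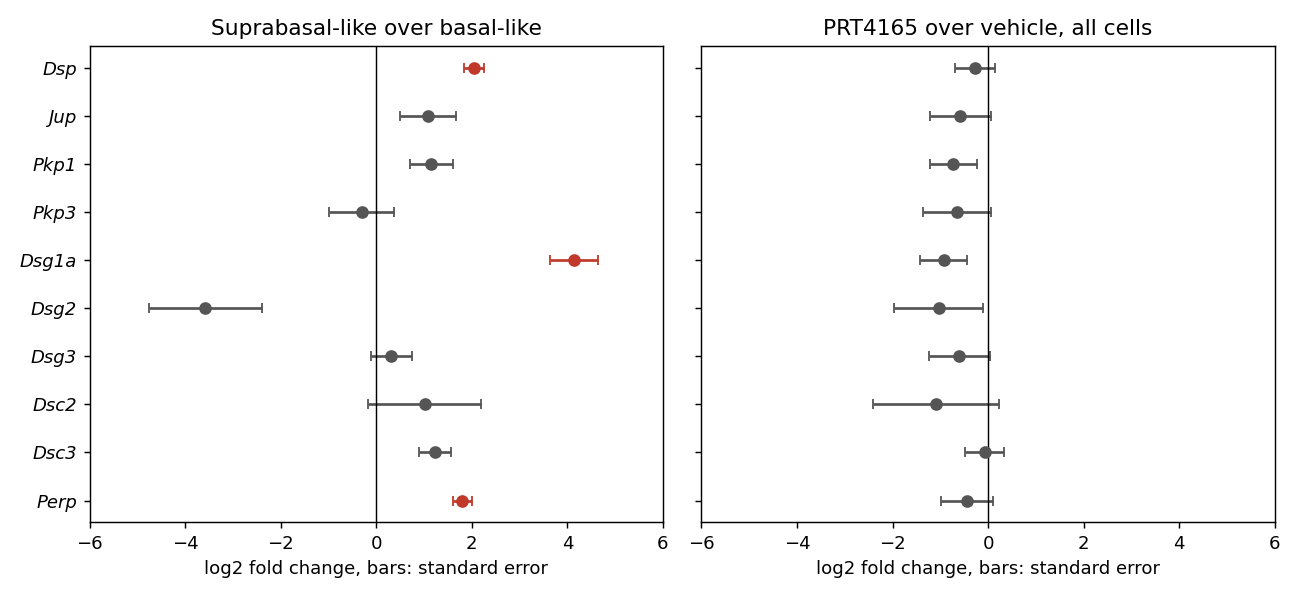
Log2 fold changes from edgeR with standard errors for the 10 desmosome genes, suprabasal-like over basal-like cells on the left and PRT4165 over vehicle in all cells on the right. Red points passed an adjusted p of 0.05 (Dsp 2.04, Dsg1a 4.13, Perp 1.80, all on the left), and no point passed on the right.

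Markers of other cell groups differed along the split. Summed cycling markers were at 72.5 to 878 CPM in basal-like and 0.0739 to 19.8 in suprabasal-like cells. Sebaceous gland markers were at 904 to 4881 and 353 to 524, bulge markers at 491 to 1014 and 111.9 to 576 (lower in suprabasal-like cells on 3 plates and higher on PRT4165 replicate 2), and upper follicle markers at 1321 to 4198 and 3409 to 10351 CPM. Of these, Mki67 and Scd1 fell (log2 fold changes -6.06 and -3.01, edgeR adjusted p = 0.0447 and 0.034) and Krt17 rose (1.56, 0.0426). The bulge list held Cd34, Lhx2, Lgr5, Sox9 and Postn. The study uses Postn as a marker of the infundibulum, so that sum is not of the bulge alone. Suprabasal-like cells were also deeper, with a median of 557752 counts against 375245. The part of these cells in the desmosome values was not tested. Immune markers summed to at most 2.15 CPM and melanocyte markers to at most 6.41 CPM. Fibroblast markers reached 91.2 CPM in basal-like and 24.4 in suprabasal-like cells, the only endothelial marker measured, Pecam1, was at 181.3 to 715 CPM, and the Merkel cell marker Krt20 was at 0 in basal-like cells and reached 9.48 CPM on a suprabasal-like plate.

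To compare cells at equal depth, each was thinned to 50000 counts, which left 123 basal-like and 86 suprabasal-like cells. Dsg1a was then detected in 34.96% of basal-like cells (Wilson 95% interval 27.1% to 43.7%) and 94.2% of suprabasal-like cells (87.1% to 97.5%). Jup was detected in 51.2% and 76.7%, and Pkp1 in 72.4% and 84.9%. Perp was detected in all cells of both classes, Dsp in 99.2% and 96.5% and Dsc3 in 91.1% and 89.5%, shares too near 100% to tell the classes apart. Dsg3 was found in 74.8% and 65.1% of cells, Pkp3 in 34.96% and 31.4%, Dsg2 in 24.4% and 6.98%, and Dsc2 in 4.88% and 6.98%. Before thinning, Dsg1a was detected in 56.9% to 67.5% of all cells of a plate and Dsc2 in 5.19% to 8.57%. The intervals cover counting error only, as cells of a plate are not replicates.

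The makeup of the desmogleins shifted from a mixture to mostly Dsg1. In basal-like cells Dsg1 made up 39.1%, 46.3%, 37.6% and 14.9% of the counts of Dsg1, Dsg2, Dsg3 and Dsg4, in plate order as above. In suprabasal-like cells it made up 83.6%, 94.3%, 82.4% and 91.6%. The rise was 53.5 ± 15.5 percentage points (SD, n = 4 plates) and occurred on 4 of 4 plates. The exact two-sided sign-flip permutation test gave p = 0.125, which is the smallest that 4 plates can give. With counts divided by transcript length, the Dsg1 share was 38.7% ± 14.9 in basal-like, 81.3% ± 17.4 in between and 89.5% ± 5.03 in suprabasal-like cells (SD, n = 4). Dsg3 held 39.7% ± 10.1, 17.2% ± 16.4 and 9.98% ± 5.47. Dsg2 held 21.7% ± 18.7 in basal-like cells and 0.448% ± 0.397 in suprabasal-like cells. The basal-like Dsg2 share was 31.2% on vehicle replicate 1 and 43.3% on PRT4165 replicate 2, against 4.90% and 7.24% on the others. A single cell held 54.3% and 74.6% of the Dsg2 counts behind those higher shares. In the cells between the keratin limits, the Dsg1 share lay within the range of the suprabasal-like plates on 3 plates and at 55.4% on PRT4165 replicate 2. These between sums hold only 5, 4, 10 and 12 cells, in plate order, so their shares are uncertain.

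The desmocollins shifted less. Dsc3 made up between 91.2% and 99.6% of a plate's desmocollin counts per kb in basal-like cells and 77.1% ± 5.42 in suprabasal-like cells (SD, n = 4). Dsc1, the desmocollin of upper layers, held 2.63% ± 3.76 and 19.4% ± 4.76. Dsc2 held 2.37% ± 2.12 and 3.44% ± 3.21. Dsc3 thus stayed the main desmocollin in both classes on all 4 plates. In the few cells between (4 to 12 per plate), Dsc1 ranged from 0.23% to 68.1%, the latter in the 4 cells of vehicle replicate 2. Of the plakophilins, Pkp1 held 58.4% ± 8.22 per kb in basal-like and 75.1% ± 8.56 in suprabasal-like cells, and Pkp3 34.3% ± 10.2 and 16.4% ± 6.61.

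**Figure D4:**
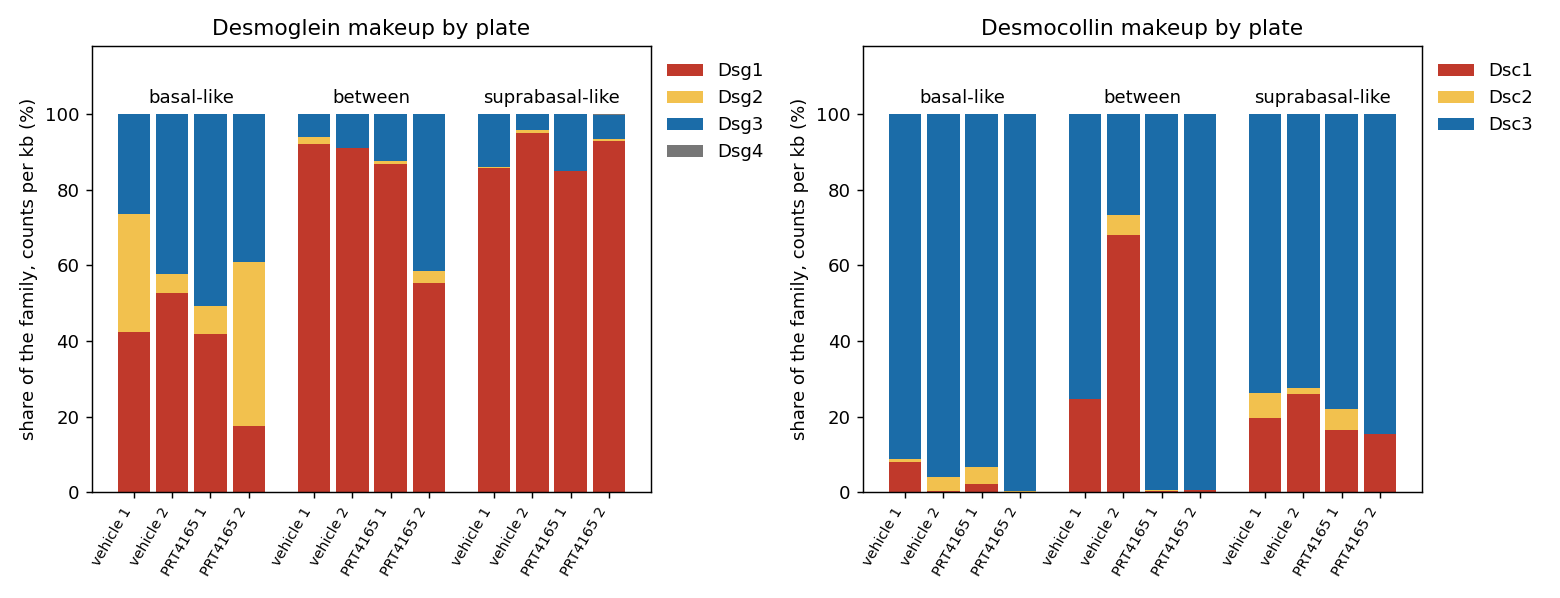
Share of each isoform in its family's counts per kb (%), as stacked bars by plate for basal-like, between and suprabasal-like cells, desmogleins on the left and desmocollins on the right. Dsg1 takes most of the desmoglein bar in every suprabasal-like sum, whereas Dsc3 fills most of the desmocollin bar in both outer classes. The between bars rest on 4 to 12 cells each.

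Many suprabasal-like cells held both the cadherin of the lower and that of the upper layers. Among thinned suprabasal-like cells, 63.95% held counts of both Dsg1 and Dsg3, 31.4% of Dsg1 without Dsg3 and 1.16% of Dsg3 without Dsg1. Among basal-like cells these shares were 36.6%, 4.88% and 38.2%. Dsc1 and Dsc3 were found together in 4.07% of basal-like, 19.4% of between and 60.5% of suprabasal-like cells, and Dsc3 without Dsc1 in 87.0%, 70.97% and 29.1%. The reads have no molecular identifiers, so a gene at a few counts may be missed.

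Across the 258 classed cells, the rank correlation with the keratin share, taken within each plate and averaged, was 0.65 for Dsg1a, 0.48 for Perp, 0.41 for Dsp and 0.32 for Jup. It was 0.20 for Pkp1, 0.08 for Dsc2, 0.06 for Dsc3, 0.05 for Pkp3, -0.13 for Dsg3 and -0.14 for Dsg2. Between desmosome genes, Dsg1a with Perp (0.62), Dsp with Perp (0.60), Dsp with Dsg1a (0.60) and Jup with Dsg1a (0.45) were the highest pairs. These values describe cells that share libraries and depth. For Dsc3 the plates went both ways, at -0.07 and -0.10 with vehicle and at 0.16 and 0.27 with PRT4165.

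**Figure D5:**
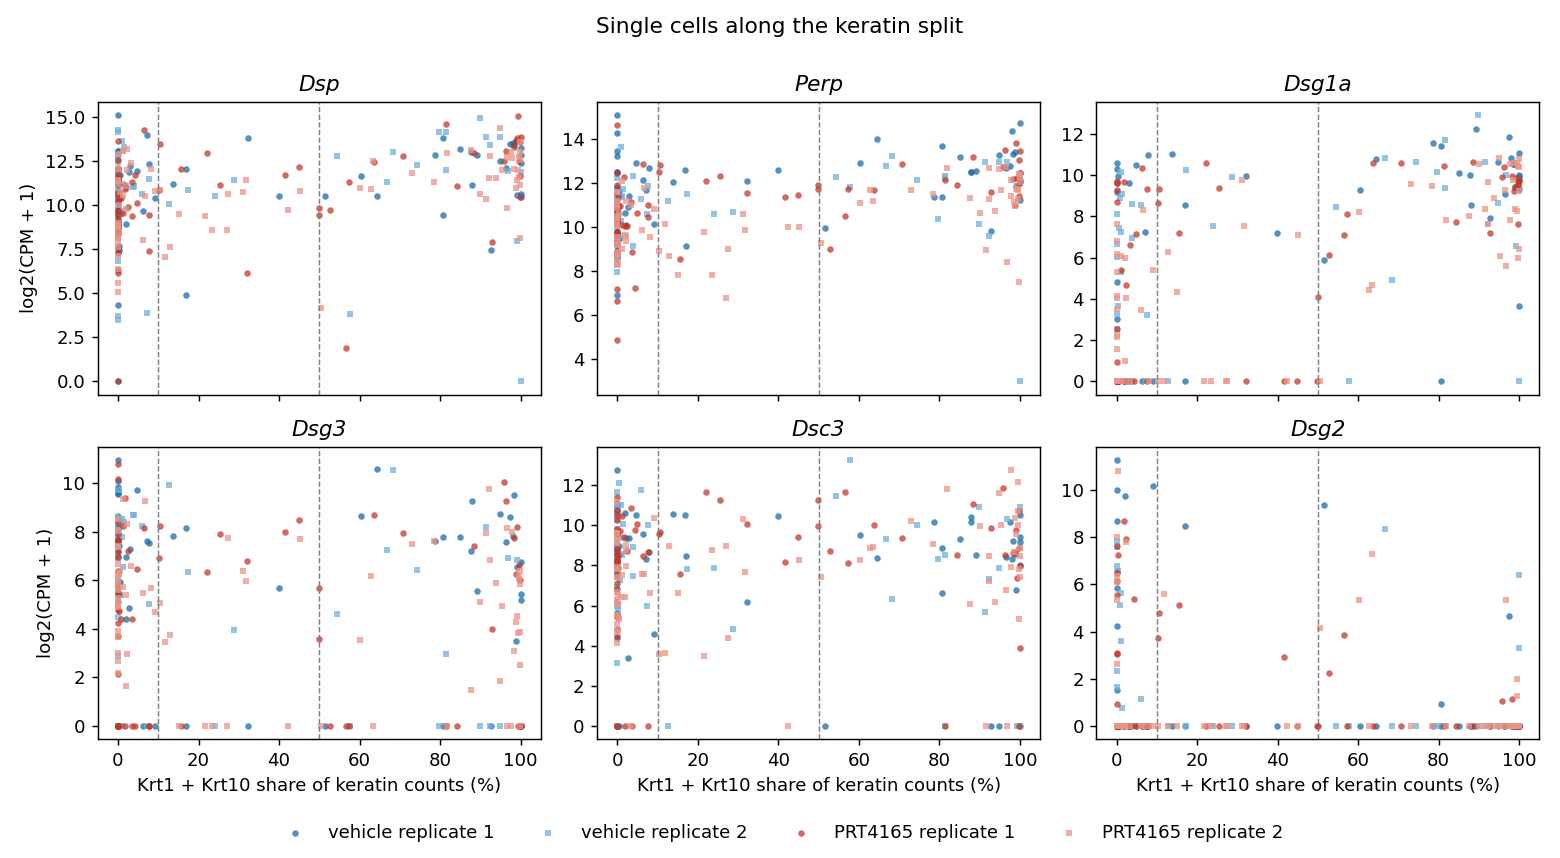
Level of 6 desmosome genes in each classed cell as log2(CPM + 1) against the share of Krt1 and Krt10 in keratin counts (%), with colours and shapes for the plates and dashed lines at the class limits of 10% and 50%. Dsg1a is at 0 in many cells on the left and rarely on the right, whereas Dsg3 and Dsc3 are present at both ends and Dsg2 is mostly on the left.

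Over 3851 genes detected in at least 25% of the cells of every plate, the genes whose levels followed Dsg1a most closely by the same within-plate rank correlation were Calm4 (0.68), Gltp (0.68), Ly6g6c (0.68), Krt10 (0.67, used in the split) and Bbox1 (0.65). For Dsp they were Pof1b (0.54), Spink5 (0.51), Ly6g6c (0.51), Bbox1 (0.49) and Itm2b (0.48), of which Ly6g6c and Bbox1 are on both lists. Those nearest Dsg3 were lower and others, namely Krt6a (0.35), Gsn (0.35), Serpinb5 (0.35), Aqp3 (0.34) and Ddx19a (0.33).

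Other genes of the desmosome and its surroundings were followed in the same fit. Of 9 other desmosome genes tested, 0 passed the test in suprabasal-like against basal-like cells, although their median log2 fold change was 2.70. The 4 with the smallest p were Cdsn (corneodesmosin, a junction protein of the cornified layer) at 8.61 (SE 1.68), Dsg1b at 2.89 (SE 0.63), Ppl (periplakin) at 2.17 (SE 0.50) and Dsc1 at 6.06 (SE 1.66). Their edgeR adjusted p-values were 0.0841, 0.107, 0.129 and 0.174. Dsc1 was at 36.5, 1.71, 7.33 and 0 CPM in basal-like and at 195.3, 296, 165.6 and 160.3 in suprabasal-like cells, so its fitted fold change rests on counts near 0. Cdsn likewise was at 15.9, 0.0713, 0.461 and 0.221 CPM in basal-like and at 164.2, 523, 242 and 93.2 in suprabasal-like cells, where 3 to 9 cells of a plate held it and a single cell held 51.7% to 71.8% of its counts. Dsg1b was at 55.1, 58.2, 32.2 and 9.57 CPM and at 362, 138.3, 281 and 215. Of 11 genes for factors and proteases that regulate desmosomes, 2 rose and 9 did not pass. Klk7, a protease that cleaves corneodesmosomes, rose by a log2 fold change of 5.55 (SE 0.44, edgeR adjusted p = 0.00306), and Spink5, an inhibitor of such proteases, by 4.16 (SE 0.61, 0.0384). Klf4 (2.31) and Grhl1 (3.16), both transcription factors of differentiation, did not pass (edgeR adjusted p = 0.087 and 0.151).

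Of the keratins that desmosomes anchor, 4 could be tested apart from those of the split, and Krt17 passed. Of 9 adherens junction genes 0 passed, with Cdh1 (E-cadherin) at a log2 fold change of 1.35 and Cdh3 (P-cadherin) at -2.68 (edgeR adjusted p = 0.303 and 0.416). Of 7 tight junction genes 0 passed, with Cldn1 at 1.78, Tjp1 at 3.07, Ocln at 4.08 and Cldn4 at 4.90 (edgeR adjusted p between 0.149 and 0.321). Of 5 gap junction genes 0 passed, with Gja1 at -2.65 (0.317).

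Between treatments, no desmosome gene passed the test. Over all cells, edgeR called 0 of the 10 genes and 0 of 12791 genes (0%), with 630 genes at an unadjusted p under 0.05. DESeq2 called 1.34% of the genes and limma on mean log2 values 19, with 0 desmosome genes in either. All 10 log2 fold changes of PRT4165 over vehicle were negative, with a median of -0.63 against -0.02 over all genes, and all had an edgeR adjusted p of 0.997. Without vehicle replicate 1 the median was -0.27 (0.13 over all genes) and 3 of the 10 were positive, and without PRT4165 replicate 2 it was -0.38 and 2 were positive. A negative median with all plates was not particular to the 10 genes. It was -0.68 for other desmosome genes, -0.63 for tight junction genes and -0.85 for upper follicle markers. Other lists were positive, with 0.85 for gap junction genes, 0.81 for cycling and 0.72 for sebaceous gland markers. In a sum over all cells of a plate, fewer cells of a type and less RNA per cell cannot be told apart, and 32.9% and 29.1% of the vehicle cells against 27.8% and 38.96% of the PRT4165 cells were suprabasal-like.

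Dsg1a was at 1050 and 525 CPM on the vehicle plates and at 467 and 357 on the PRT4165 plates. Both treated plates were lower, with a log2 fold change of -0.93 (SE 0.49, edgeR adjusted p = 0.997). Pkp1 was at 152.4 and 147.2 CPM against 95.5 and 85.8, a log2 fold change of -0.73 (SE 0.49). These were the 2 desmosome genes with both PRT4165 plates below both vehicle plates, an order that 15.6% of all genes showed. Dsp was at 5928 and 5356 against 6016 and 3326 CPM (log2 fold change -0.27, SE 0.42), Dsc3 at 759 and 745 against 806 and 625 (-0.07, SE 0.41), and Perp at 6589 and 2453 against 4214 and 2440 (-0.44, SE 0.54).

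Jup was at 42.2 and 78.6 CPM with vehicle and 29.9 and 50.98 with PRT4165 (log2 fold change -0.58, SE 0.64). With limma on mean log2 values of cells Jup was at -0.98 (SE 0.47, adjusted p = 0.567), the smallest adjusted p of the 10 genes there. Pkp3 was at 24.0 and 40.3 against 14.9 and 26.1 CPM (-0.65, SE 0.72), and Dsg3 at 306 and 132.01 against 207.8 and 80.8 (-0.60, SE 0.64). Dsg2 (97.5 and 15.3 against 14.9 and 40.04) and Dsc2 (41.2 and 21.8 against 28.7 and 0.709) had the widest standard errors of the log2 fold change, 0.93 and 1.32. Leaving out vehicle replicate 1 turned the log2 fold change of Perp to 0.45, of Dsg2 to 0.84 and of Dsg3 to 0.14, and leaving out PRT4165 replicate 2 turned that of Dsp to 0.10 and of Dsc3 to 0.11.

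Within basal-like cells, edgeR called 0 of 11621 genes (0%, 622 at an unadjusted p under 0.05, DESeq2 95 higher and 79 lower) and none of the desmosome genes. All 10 log2 fold changes were again negative with all 4 plates, though 1 was positive without vehicle replicate 1, 1 without vehicle replicate 2, 2 without PRT4165 replicate 2 and 1 with a stricter cell filter. The median was -0.80, and it was -0.49 without PRT4165 replicate 2. With all plates, Pkp1 and Dsg1a were both at -1.27 (SE 0.59 and 0.91), Dsc3 at -0.78 (SE 0.44) and Dsp at -0.66 (SE 0.34). Within suprabasal-like cells, 0 of 10133 genes were called (0%, 518 at an unadjusted p under 0.05, DESeq2 216), and the desmosome genes lay between -1.66 for Dsg2 (SE 1.68) and 0.01 for Dsc3 (SE 0.57), with Dsg1a at -1.01 (SE 0.56). The change from basal-like to suprabasal-like cells did not differ detectably between treatments either, since the test of that difference called 0 of 12434 genes (0%, 400 at an unadjusted p under 0.05, DESeq2 160) and 0 desmosome genes. The difference in log2 fold change was 0.52 (SE 0.41) for Dsp, 0.63 (SE 0.95) for Dsg1a and 0.34 (SE 0.42) for Perp, with an edgeR adjusted p of 1. The Dsg1 share of desmoglein counts over all cells was 2.19 percentage points lower with PRT4165 (exact permutation p = 0.667, where 2 against 2 plates cannot give less than 0.333). The biological variation estimated by edgeR was 76.9% of the level for the all-cell comparison and 97.7% for the class comparison, which limits the differences that 4 plates can show.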

How the data were processed

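Single cells from 4 plates, 2 per treatment, were analysed. The authors quantified the 75-base single-end reads with Salmon 0.13.1 against the mouse transcriptome (mm10/GRCm38, Ensembl) and deposited estimated counts for each gene symbol in each cell, without molecular identifiers or scaling. Of the values above 0, 18.3% are not whole. The study's cell filter was applied, requiring at least 1000 genes and at most 50% mitochondrial counts (15 removed). Plates came from the labels, where the letters AC were read as vehicle, the sole treatment named there besides PRT4165. The labels' treatment codes differ between treatments and are not explained.

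Counts were summed per plate, or per plate and class, rounded, filtered with filterByExpr, scaled by TMM and tested two-sided in edgeR 4.0.16 (R 4.3.3) by its quasi-likelihood test, plate being a block in the class comparison, with Benjamini-Hochberg adjustment over all genes tested and a threshold of 0.05. The SE is the fold change over the square root of F. DESeq2 1.42.0 and limma 3.58.1 were alternatives. The fits were tested on simulated data. The 4 keratins of the split were given no test. Shares of isoforms were compared by exact permutation tests over plates. Intervals are Wilson at 95%. Levels per kb use the longest protein-coding transcript. Single-cell values are log2(CPM + 1). Thinning left 246 cells. No 2 cells had identical counts, and no doublet caller was run.

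The desmosome genes and all lists were chosen with earlier results of these data known. Genes to name were the 10 members, the 4 genes of smallest p in the class comparison of each other list (not all are printed), and the 5 most correlated with each of Dsp, Dsg1a and Dsg3. Cldn7, Cd3e, Cd207, Cd74, Lyz2, Col3a1, Tyrp1, Mlana, Cdh5, Kdr and Atoh1 are not analysed here, and 1 gene first listed among the basal-like check markers is not reported here. The labels tie plates of the same batch number, but the deviations of same-numbered plates from their group means correlated at only 0.0206, a value that is equal for both pairs with 2 plates per group. The fit with the batch number as a replicate block was an alternative.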

Additional observations from a re-analysis of the deposited data

Results flagged for a closer look

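The Dsg1 share of desmoglein counts rose most on PRT4165 replicate 2, by 76.7 percentage points against 44.5 to 48.01 on the other 3 plates, and the gap was 0.890 of the range of the 4 plates. Its basal-like cells had the lowest Dsg1 share, 14.9%. In them Dsg2 held 43.1% of the desmoglein counts, and a single cell held 74.6% of the Dsg2 counts. The suprabasal-like Dsg1 share of this plate, 91.6%, was within the range of the others. Chance alone marks about 1 in 20 such groups.

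Pkp3 moved in opposite directions on the plates of the 2 treatments, with suprabasal-like over basal-like ratios of 0.355 and 0.868 with vehicle and 1.21 and 1.11 with PRT4165. The difference between treatments was 1.06 on the log2 scale (SE 1.47), and the edgeR test of that difference gave an adjusted p of 1. Without TMM scaling Pkp3 was lower in suprabasal-like cells on all 4 plates. A single cell held 66.9% of the suprabasal-like Pkp3 counts on PRT4165 replicate 2, against 20.6% to 32.7% on the other plates. The ratio above 1 on that plate thus leans on 1 cell.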

How the results depend on the processing

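The class comparison called 3 desmosome genes. The count stayed at 3 or 4 with DESeq2, no filter, a stricter cell filter, thinned cells and the deepest cells left out. It also did with the cells between the limits counted as basal-like, with a split by the check markers and with no plate block. The fourth gene was Dsg2, with DESeq2 (-3.60) and with the check markers (-5.94). The count was 0 with library totals in place of TMM and 5 with limma on mean log2 values of cells, where Jup (1.83) and Pkp1 (1.33) were added. Leaving out single plates gave 0 to 3. Over all alternatives the log2 fold change ran from 1.48 to 2.84 for Dsp, from 1.24 to 2.28 for Perp and from 3.36 to 6.05 for Dsg1a. Genes called in all, 46 at first, were 1704 with DESeq2, 1473 with limma, 94 higher and 14 lower without a filter, 97 and 13 with the stricter cell filter, 133 and 39 with thinned cells, 1.48% of those tested with the check markers, 117 and 51 without the plate block, 15 with library totals, and 7, 12, 23 and 33 without 1 plate. Pkp3 changed sign with the stricter cell filter (0.058) and the check markers (0.63) and ran from -0.48 to 0.073 without single plates. Dsg3 changed sign with library totals (-0.24) and limma (-1.01). The cause was not tested.

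For PRT4165 against vehicle, 0 desmosome genes were called under every alternative run, in all cells, in either class and in the test between treatments, including the fits with the batch number as a replicate block, which called 0 in each. Signs of uncalled changes in all cells turned for Dsg2 with the stricter cell filter (0.17) and for Dsc3 with the deepest cells left out (0.061) and with limma (0.12). Without single plates, Dsp ran from -0.76 to 0.10, Dsg2 from -1.92 to 0.84, Dsg3 from -1.44 to 0.14, Dsc3 from -0.26 to 0.11 and Perp from -0.99 to 0.45. Within suprabasal-like cells the number of all genes called was 94 without a filter and 39, 37, 1 and 1 without single plates. The between-treatment test called 0 to 2 genes without single plates.

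The rise of the Dsg1 share was 40.6 to 58.9 percentage points over 8 alternatives, 45.8 to 56.5 without single plates. The difference in this share between treatments was -2.19 points with all plates and ran from -4.99 to 0.60 without single plates. No separate fit with a replicate block was made for this share. Its sign turned without vehicle replicate 2 or without PRT4165 replicate 1. The analyses with the deepest cells left out, with library totals and with counts divided by transcript length were chosen after seeing the data. Dsc2 and Dsg2, whose counts came from few cells, are limited by depth and cell number.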
